A study of Mus musculus with 24 samples.

Results

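The 33 genes described here are markers of B cells, of plasma cells and of the stroma and signals that organise lymphoid tissue, measured in whole mammary glands of aged transgenic mice. They were picked by symbol from a table of 55487 genes, and each of the 33 symbols had a row. By role they comprise 11 genes of the B cell receptor complex and surface, 4 of B cell signalling, 5 B cell transcription factors, 2 receptors for the survival factor BAFF, 7 genes of lymphoid homing and lymphotoxin, and 4 plasma cell genes. A mammary fat pad can carry a lymph node, so these genes were followed library by library as a measure of lymph node content. Levels are in TPM, transcripts per 1000000, a share of the RNA in a library that is already divided by transcript length.

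The 24 libraries came from 24 mice in 8 groups of 3, and both mouse lines carried an rtTA activator under the MMTV promoter together with a transgene behind a tet operator. One line carried CYP19A1 (genotype MMTV-rtTA/tet-op-CYP19A1), which encodes aromatase, the enzyme of oestrogen synthesis. The other carried Esr1 (MMTV-rtTA/tet-op-Esr1), the gene of oestrogen receptor alpha. Each line was sampled at 20 months of age after 8 months of transgene induction with tamoxifen (a pellet of 25 mg released over 60 days), with letrozole (2.5 mg over 60 days) or without a drug, and at 18 months after 6 months of induction. Tamoxifen modulates the oestrogen receptor and letrozole inhibits aromatase, and each pellet was carried for the last 2 months. The MMTV promoter directs expression mainly to mammary epithelium. Whether lymphoid cells of these glands expressed a transgene was not tested. The sample descriptions of the 20-month mice without a drug hold a tag, PLA, that the labels do not explain; these mice are called untreated here. Mice without a transgene were not analysed here. The labels number the 3 mice of a group as biological replicates with different animal numbers.

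As background, a B cell detects antigen through a membrane immunoglobulin that signals by way of its partner chains Cd79a and Cd79b, and it matures under transcription factors such as Pax5 and Ebf1. In lymph nodes, stromal cells attract lymphocytes with the chemokines Cxcl13, Ccl19 and Ccl21a, high endothelial venules admit them from blood, and lymphotoxin made by the lymphocytes keeps this stroma in place. In the mammary gland, plasma cells gather around lactation and supply antibody to milk. Madcam1 is a vascular addressin, an adhesion molecule to which lymphocytes bind, and its part in plasma cell entry was not tested here.

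Several members are made by other cells of the gland too, and the glands differed in their tissue makeup. In Esr1 20-month untreated replicate 2, 31.3% of the TPM belonged to ribosomal RNA (median of all libraries 0.188%), which leaves a smaller share for other RNA there. Mitochondrial RNA was at 9.82%, the lowest of all libraries, and protein-coding genes held 29.7% (median 35.05%). How much of the low member values there this accounts for was not tested. Calls that changed without this library are given beside the results. The mean log2(TPM + 1) of 8 skeletal muscle genes was 10.5 ± 0.42 (SD, n = 3) in untreated CYP19A1 glands at 20 months and 5.98 ± 3.94 at 18 months, and that of 8 mammary epithelium genes was 3.99 ± 0.54 in Esr1 glands with letrozole and 6.62 ± 0.27 untreated. From 14410 to 17684 genes reached 1 TPM in a library. Read depth cannot be recovered from TPM and is unknown here. In whole tissue, fewer cells of a type and less RNA per cell cannot be told apart.

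Most members were low. Over the 24 libraries 2 members had a median of at least 10 TPM, 18 had a median between 1 and 10 TPM, and 13 were under 1 TPM. At least 1 TPM in at least 3 libraries was required for testing, and 26 members met this. The 7 that did not were Fcer2a (the low-affinity IgE receptor), Fcrl1 (an Fc receptor-like protein), Vpreb3 (a surrogate light chain protein of precursor B cells), Blk (a kinase of the Src family), Tnfrsf13c (the BAFF receptor), Cxcr5 (the receptor for Cxcl13) and Lta (lymphotoxin alpha). Their highest levels were 0.78 TPM for Fcer2a, 1.59 TPM for Fcrl1, 0.41 TPM for Vpreb3, 1.24 TPM for Blk, 0.82 TPM for Tnfrsf13c, 0.67 TPM for Cxcr5 and 0.31 TPM for Lta. Listed at 0 in at least 1 library were 4 members, namely Fcrl1, Vpreb3, Lta and Ccl21a.

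The members did not vary evenly over the mice. A single gland, Esr1 20-month untreated replicate 1, held the highest level of 18 of the 33 members. The other 2 glands of its group were lower for these genes. Most of the lowest levels were in CYP19A1 letrozole replicate 1 with 10 members, Esr1 20-month untreated replicate 2 with 8, and Esr1 18-month replicate 1 with 5. CYP19A1 letrozole replicate 1 also had the fewest genes at 1 TPM of all libraries (14410), so low values there were not particular to these members. The mean log2(TPM + 1) of the 11 receptor complex and surface members was 1.83 in Esr1 20-month untreated replicate 1 and 0.62 in replicate 2 of that group, the ribosomal-rich library. In the CYP19A1 20-month untreated glands it lay between 0.94 and 1.02.

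**Figure D1:**
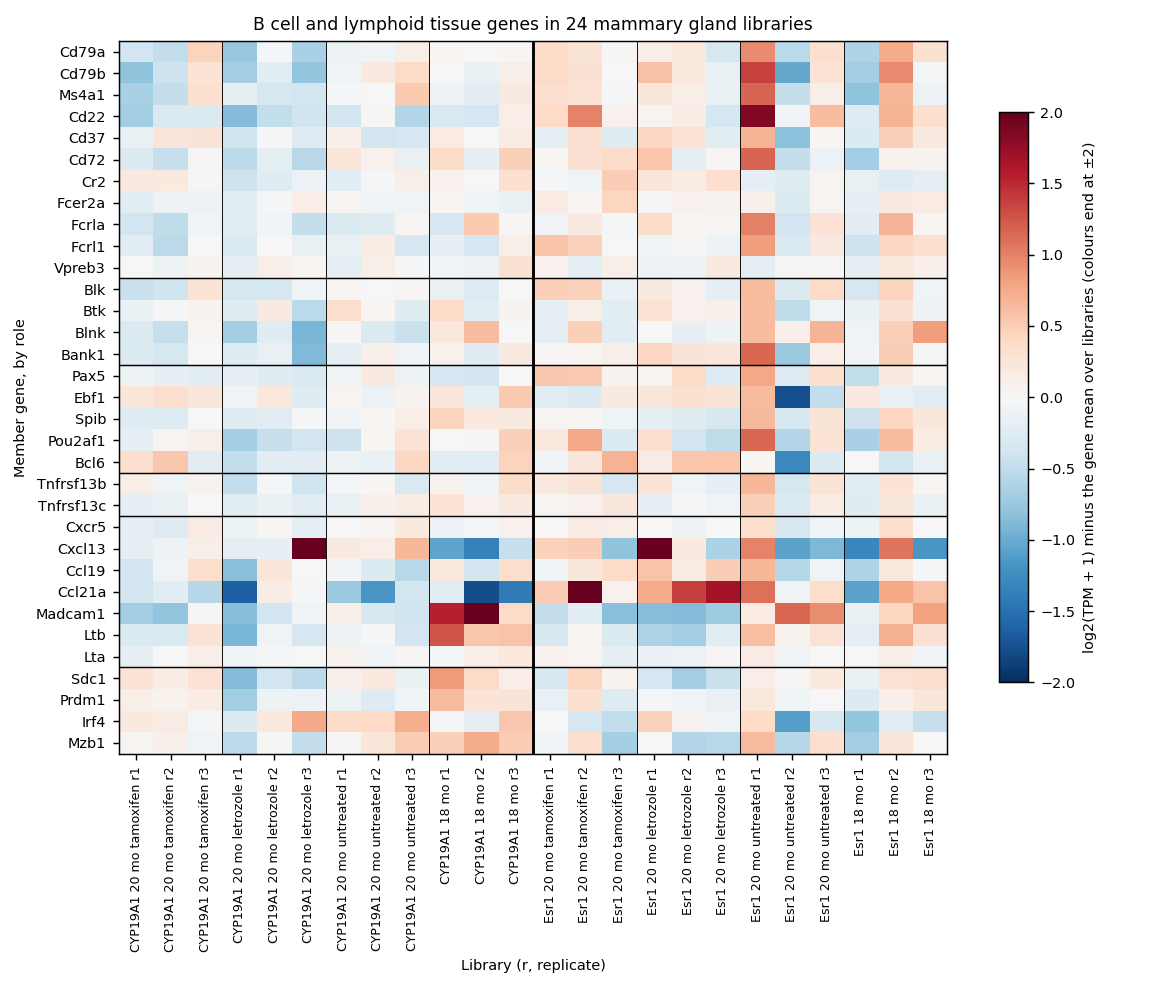
Heat map of the 33 members (rows, ordered by role, with lines between roles) in the 24 libraries (columns, CYP19A1 line left of the thick line, Esr1 line right of it). Colour is log2(TPM + 1) minus the gene's mean over the libraries, and colours end at ±2. The B cell rows of Esr1 20-month untreated replicate 1 are red nearly throughout and those of CYP19A1 letrozole replicate 1 blue, while Madcam1 and Ltb are red in CYP19A1 18-month glands.

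Of the B cell receptor complex and surface genes, Cd79a and Cd79b are the signalling chains of the receptor. Cd79a in the CYP19A1 line stood at 0.76, 0.64 and 2.13 TPM with tamoxifen, 0.37, 1.26 and 0.47 TPM with letrozole, 1.13, 1.21 and 1.51 TPM untreated at 20 months, and 1.38, 1.3 and 1.38 TPM at 18 months. Cd79a in the Esr1 line stood at 2.02, 1.75 and 1.34 TPM with tamoxifen, 1.5, 1.66 and 0.82 TPM with letrozole, 3.45, 0.58 and 1.87 TPM untreated at 20 months, and 0.52, 2.84 and 1.86 TPM at 18 months. No comparison made here left its groups apart, and the widest spread was within the untreated and 18-month Esr1 glands. Cd79b in the CYP19A1 line stood at 0.72, 1.26 and 2.62 TPM with tamoxifen, 0.85, 1.56 and 0.73 TPM with letrozole, 1.86, 2.39 and 2.92 TPM untreated at 20 months, and 1.99, 1.72 and 2.24 TPM at 18 months. Cd79b in the Esr1 line stood at 2.97, 2.72 and 1.99 TPM with tamoxifen, 3.49, 2.45 and 1.69 TPM with letrozole, 6.76, 0.47 and 2.63 TPM untreated at 20 months, and 0.88, 4.75 and 1.91 TPM at 18 months. The CYP19A1 letrozole glands all lay below the CYP19A1 untreated and the Esr1 letrozole glands, and the top value was in the same Esr1 gland as for Cd79a. Ms4a1 encodes CD20, a membrane protein of mature B cells. Ms4a1 in the CYP19A1 line stood at 0.28, 0.43 and 1.5 TPM with tamoxifen, 0.74, 0.59 and 0.54 TPM with letrozole, 0.97, 1 and 1.86 TPM untreated at 20 months, and 0.87, 0.72 and 1.27 TPM at 18 months. Ms4a1 in the Esr1 line stood at 1.51, 1.44 and 0.95 TPM with tamoxifen, 1.34, 1.17 and 0.81 TPM with letrozole, 3.49, 0.43 and 1.2 TPM untreated at 20 months, and 0.15, 2.16 and 0.84 TPM at 18 months. The CYP19A1 letrozole glands again lay below both of those groups, and Esr1 20-month untreated replicate 1 was again highest.

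Cd79a, Cd79b and Ms4a1 did not pass in any of the 16 comparisons made. In the average over the 4 conditions, the log2 difference of CYP19A1 minus Esr1 was -0.30 ± 0.17 (SE) for Cd79a, with an adjusted p of 0.358 in limma. It was -0.36 ± 0.22 for Cd79b (limma adjusted p = 0.417) and -0.22 ± 0.18 for Ms4a1 (limma adjusted p = 0.561). Log2 differences are of log2(TPM + 1), a scale that compresses the changes of low genes. A gene is said to have passed where its p, adjusted by Benjamini-Hochberg over the 19325 genes tested, was under 0.05.

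Cd22, an inhibitory lectin that dampens B cell receptor signalling (ENSMUSG00000030577.14, chr7:30865404-30880342 on GRCm38.p6), differed between the lines. Cd22 in the CYP19A1 line stood at 0.52, 1.02 and 1.02 TPM with tamoxifen, 0.35, 0.76 and 0.87 TPM with letrozole, 0.92, 1.5 and 0.65 TPM untreated at 20 months, and 0.99, 0.95 and 1.72 TPM at 18 months. Cd22 in the Esr1 line stood at 2.27, 3.94 and 1.61 TPM with tamoxifen, 1.56, 1.73 and 0.94 TPM with letrozole, 7.91, 1.37 and 2.79 TPM untreated at 20 months, and 1.06, 2.96 and 2.1 TPM at 18 months. In the CYP19A1 line 1.72 TPM was the highest value, and 7 of 12 Esr1 glands lay above it, while the lowest Esr1 values lay inside the CYP19A1 range; with either drug the lines did not overlap. Among the other surface members, Cd37, a tetraspanin, ranged from 2.31 to 8.45 TPM and was at 1 TPM or more in each of the 24 libraries. Cd72, a coreceptor, ranged from 0.49 to 4.35 TPM. Cr2, the complement receptor that mature B cells and follicular dendritic cells carry, stayed between 0.27 and 1.38 TPM. Fcrla, an intracellular Fc receptor-like protein, ranged from 0.07 to 2.05 TPM.

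The RefSeq promoter table (GRCm38.p6, the build family of the mm10 named for these data) held 28 of the 33 members; Cd79b, Ms4a1, Blk, Cxcr5 and Mzb1 had no entry. The 250 bases before the start site are shown for the receptor chain used below as the measure of B cells and for the surface gene that differed between the lines. Capitals mark a match to AGGAAGTG, an ETS family motif, in Cd79a and to the Ebf1 palindrome in Cd22. The RefSeq start used for Cd22 lies inside the gene's span given above.
Cd79a (chr7:24897247-24897496, plus strand): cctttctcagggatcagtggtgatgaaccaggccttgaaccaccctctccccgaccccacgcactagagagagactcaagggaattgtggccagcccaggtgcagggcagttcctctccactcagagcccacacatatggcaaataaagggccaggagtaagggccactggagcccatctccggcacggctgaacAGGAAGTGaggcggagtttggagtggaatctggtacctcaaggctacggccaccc
Cd22 (chr7:30879029-30879278, minus strand): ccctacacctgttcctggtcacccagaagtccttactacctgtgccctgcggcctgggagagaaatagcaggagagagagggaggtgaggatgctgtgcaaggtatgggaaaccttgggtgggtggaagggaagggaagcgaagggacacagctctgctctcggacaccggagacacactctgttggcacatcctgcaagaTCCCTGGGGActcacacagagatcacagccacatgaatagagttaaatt
Both motifs were searched on both strands of the 250 bases. The ETS motif occurred in 3.62% of 27025 genes and in 2 of the 28 members (Cd79a and Tnfrsf13b). The Ebf1 palindrome occurred in 0.914% of genes and in 1 member, Cd22. The octamer ATGCAAAT, the binding site of the Oct factors that Pou2af1 joins, occurred in 1.81% of genes and in 2 members, Blnk and Vpreb3. A match describes letters and not binding.

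Of the signalling members, Btk, the kinase downstream of the B cell receptor, ranged from 0.87 to 3.15 TPM. Blnk, the adaptor that links the receptor to its effectors, ranged from 1.62 to 7.78 TPM, and Bank1, a scaffold protein, from 0.51 to 5.14 TPM. Blnk was lowest in CYP19A1 letrozole replicate 3 and highest in Esr1 18-month replicate 3. Of the 12 CYP19A1 glands, 7 lay below the lowest Esr1 gland for Blnk.

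The transcription factors fell into low and abundant members. Pax5, the factor that holds B cell identity, ranged from 0.06 to 1.55 TPM, Spib from 0.26 to 1.65 TPM, and Pou2af1, a coactivator of immunoglobulin genes, from 0.77 to 5.28 TPM. Ebf1, an early B cell factor that adipocytes also express, was the most abundant of the 33. Ebf1 in the CYP19A1 line stood at 41.8, 44.7 and 41.1 TPM with tamoxifen, 33.8, 40.8 and 29.3 TPM with letrozole, 36.4, 32.2 and 36.7 TPM untreated at 20 months, and 41.6, 30.4 and 51.1 TPM at 18 months. Ebf1 in the Esr1 line stood at 30, 28.7 and 39.7 TPM with tamoxifen, 41, 43.4 and 42.2 TPM with letrozole, 54.9, 9.68 and 24.7 TPM untreated at 20 months, and 40.3, 32 and 30 TPM at 18 months. The 3 CYP19A1 tamoxifen glands lay above those of the CYP19A1 untreated, CYP19A1 letrozole and Esr1 tamoxifen groups, and the lowest gland was Esr1 20-month untreated replicate 2, the library rich in ribosomal RNA. Bcl6, the repressor that drives germinal centre B cells and that other cell types also use (ENSMUSG00000022508.5, chr16:23965050-23988866), came next among the factors. Bcl6 in the CYP19A1 line stood at 13.6, 15.9 and 8.9 TPM with tamoxifen, 7.27, 8.95 and 8.89 TPM with letrozole, 9.86, 9.56 and 14.5 TPM untreated at 20 months, and 9, 9.01 and 14.8 TPM at 18 months. Bcl6 in the Esr1 line stood at 10.1, 12.6 and 17.9 TPM with tamoxifen, 12, 16.1 and 16 TPM with letrozole, 10.9, 3.77 and 8.58 TPM untreated at 20 months, and 10.7, 7.98 and 9.53 TPM at 18 months. Bcl6 was lowest in the same ribosomal-rich gland. Of the BAFF receptors, Tnfrsf13b (TACI) ranged from 0.52 to 2.38 TPM and Tnfrsf13c from 0.08 to 0.82 TPM.

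Among the homing genes, Ccl21a, a chemokine for T cells and dendritic cells made by lymphatic endothelium and lymph node stroma (ENSMUSG00000094686.1, chr4:42772860-42773991), separated the lines most. Ccl21a in the CYP19A1 line stood at 1.64, 1.91 and 1.3 TPM with tamoxifen, 0.1, 2.76 and 2.31 TPM with letrozole, 1.03, 0.52 and 1.65 TPM untreated at 20 months, and 1.93, 0 and 0.28 TPM at 18 months. Ccl21a in the Esr1 line stood at 3.84, 16.3 and 2.6 TPM with tamoxifen, 4.67, 7.93 and 9.76 TPM with letrozole, 6.32, 2.26 and 3.34 TPM untreated at 20 months, and 0.62, 4.77 and 4.05 TPM at 18 months. No CYP19A1 gland exceeded 2.76 TPM, and 9 of 12 Esr1 glands did. Ccl21 exists in near-identical copies between which reads can be split, so this value is uncertain. The rows Ccl21b and Gm10591 held the same values, at 0 in 21 of 24 libraries and at most 0.50 TPM, Gm13304 reached 1.81 TPM, and Gm21541 was listed at 0 in all 24.

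Cxcl13, the chemokine that draws B cells into follicles, was set by single glands. Cxcl13 in the CYP19A1 line stood at 2.83, 3.05 and 3.69 TPM with tamoxifen, 2.83, 2.88 and 16.8 TPM with letrozole, 3.92, 3.76 and 5.85 TPM untreated at 20 months, and 1.09, 0.7 and 2.16 TPM at 18 months. Cxcl13 in the Esr1 line stood at 4.98, 5.09 and 1.48 TPM with tamoxifen, 35.6, 3.92 and 1.79 TPM with letrozole, 7.6, 1.07 and 1.33 TPM untreated at 20 months, and 0.75, 8.09 and 0.94 TPM at 18 months. Esr1 letrozole replicate 1 and CYP19A1 letrozole replicate 3 stood far above the median of 2.97 TPM, each beside much lower glands of its own group. All CYP19A1 untreated glands lay above the CYP19A1 tamoxifen and 18-month glands. Ccl19, which shares the receptor Ccr7 with Ccl21a, was far more even. Ccl19 in the CYP19A1 line stood at 1.89, 2.55 and 3.74 TPM with tamoxifen, 1.08, 3.37 and 2.73 TPM with letrozole, 2.58, 2.06 and 1.54 TPM untreated at 20 months, and 3.29, 1.87 and 3.75 TPM at 18 months. Ccl19 in the Esr1 line stood at 2.58, 3.35 and 3.85 TPM with tamoxifen, 4.51, 3.12 and 4.2 TPM with letrozole, 4.86, 1.49 and 2.51 TPM untreated at 20 months, and 1.42, 3.3 and 2.67 TPM at 18 months. It was at 1 TPM or more in all 24 libraries, and no comparison left its groups apart.

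Madcam1, the mucosal vascular addressin on which lymphocytes roll (ENSMUSG00000020310.9, chr10:79664559-79668542), passed in 2 comparisons. Madcam1 in the CYP19A1 line stood at 0.3, 0.21 and 1.14 TPM with tamoxifen, 0.17, 0.61 and 0.98 TPM with letrozole, 1.28, 0.69 and 0.59 TPM untreated at 20 months, and 5.15, 7.87 and 1.73 TPM at 18 months. Madcam1 in the Esr1 line stood at 0.51, 0.82 and 0.18 TPM with tamoxifen, 0.16, 0.15 and 0.28 TPM with letrozole, 1.35, 3.65 and 2.99 TPM untreated at 20 months, and 0.91, 1.84 and 2.69 TPM at 18 months. The CYP19A1 18-month glands and the untreated Esr1 glands all lay above 1.14 TPM, the highest value of any drug-treated gland, and of the Esr1 18-month glands replicate 1 lay below it. Ltb, lymphotoxin beta, is the membrane partner of lymphotoxin alpha (ENSMUSG00000024399.5, chr17:35194507-35196305). Ltb in the CYP19A1 line stood at 1.66, 1.61 and 2.88 TPM with tamoxifen, 0.71, 2.05 and 1.56 TPM with letrozole, 2.02, 2.18 and 1.47 TPM untreated at 20 months, and 6.75, 3.75 and 3.79 TPM at 18 months. Ltb in the Esr1 line stood at 1.58, 2.34 and 1.64 TPM with tamoxifen, 1.11, 1.02 and 1.8 TPM with letrozole, 3.89, 2.4 and 2.93 TPM untreated at 20 months, and 1.82, 4.29 and 3 TPM at 18 months. Ltb was highest in CYP19A1 18-month replicate 1, and the other two 18-month glands of that line were also above every drug-treated gland.

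Madcam1 and Ltb both passed in the age comparison given below, and their RefSeq promoters shared a motif. Capitals mark a match to the consensus site of NF-kB, which lies on the other strand in both.
Madcam1 (chr10:79664309-79664558, plus strand): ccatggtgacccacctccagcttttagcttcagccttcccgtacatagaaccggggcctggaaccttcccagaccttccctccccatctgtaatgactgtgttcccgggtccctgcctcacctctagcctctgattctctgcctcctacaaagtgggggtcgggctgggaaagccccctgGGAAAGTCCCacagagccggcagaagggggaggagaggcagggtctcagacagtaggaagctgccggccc
Ltb (chr17:35194257-35194506, plus strand): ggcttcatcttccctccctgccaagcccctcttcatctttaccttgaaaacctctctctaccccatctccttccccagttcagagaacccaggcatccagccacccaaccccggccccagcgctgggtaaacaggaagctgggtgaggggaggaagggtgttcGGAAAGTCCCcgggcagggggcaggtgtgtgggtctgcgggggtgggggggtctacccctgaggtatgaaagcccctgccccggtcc
The first capital lay 70 bases before the start site in Madcam1 and 87 bases before it in Ltb. This motif was found in the 250 bases of 43 of 27025 genes (0.159%) on either strand, and among the 28 members with a promoter in Madcam1 and Ltb. Binding of the factor was not measured, and a link between the motif and the age calls was not tested.

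The plasma cell genes were mixed in kind. Mzb1, a chaperone of antibody assembly in marginal zone B cells and plasma cells, was at 1 TPM or more throughout. Mzb1 in the CYP19A1 line stood at 2.76, 2.89 and 2.46 TPM with tamoxifen, 1.53, 2.7 and 1.6 TPM with letrozole, 2.68, 3.3 and 4.16 TPM untreated at 20 months, and 4.04, 5.09 and 4.18 TPM at 18 months. Mzb1 in the Esr1 line stood at 2.46, 3.53 and 1.3 TPM with tamoxifen, 2.64, 1.42 and 1.48 TPM with letrozole, 4.62, 1.45 and 3.59 TPM untreated at 20 months, and 1.26, 3.28 and 2.62 TPM at 18 months. The CYP19A1 18-month glands all lay above the Esr1 18-month glands, although the difference did not pass (0.73 ± 0.29, limma adjusted p = 0.405). Sdc1, syndecan-1, marks plasma cells but is also a proteoglycan of epithelia. Sdc1 in the CYP19A1 line stood at 13.8, 12.7 and 14 TPM with tamoxifen, 5.75, 8.46 and 7.55 TPM with letrozole, 12.3, 13.2 and 10.2 TPM untreated at 20 months, and 21.2, 15.1 and 12.5 TPM at 18 months. Sdc1 in the Esr1 line stood at 8.83, 15.6 and 11.9 TPM with tamoxifen, 8.68, 6.6 and 8.03 TPM with letrozole, 12.6, 11.6 and 13.2 TPM untreated at 20 months, and 10.2, 14.1 and 14.8 TPM at 18 months. In each line the letrozole glands lay below both the tamoxifen and the untreated glands. Prdm1, the factor that starts plasma cell differentiation, ranged from 0.28 to 2.22 TPM, and Irf4, which acts with it, from 1.54 to 8.16 TPM.

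**Figure D2:**
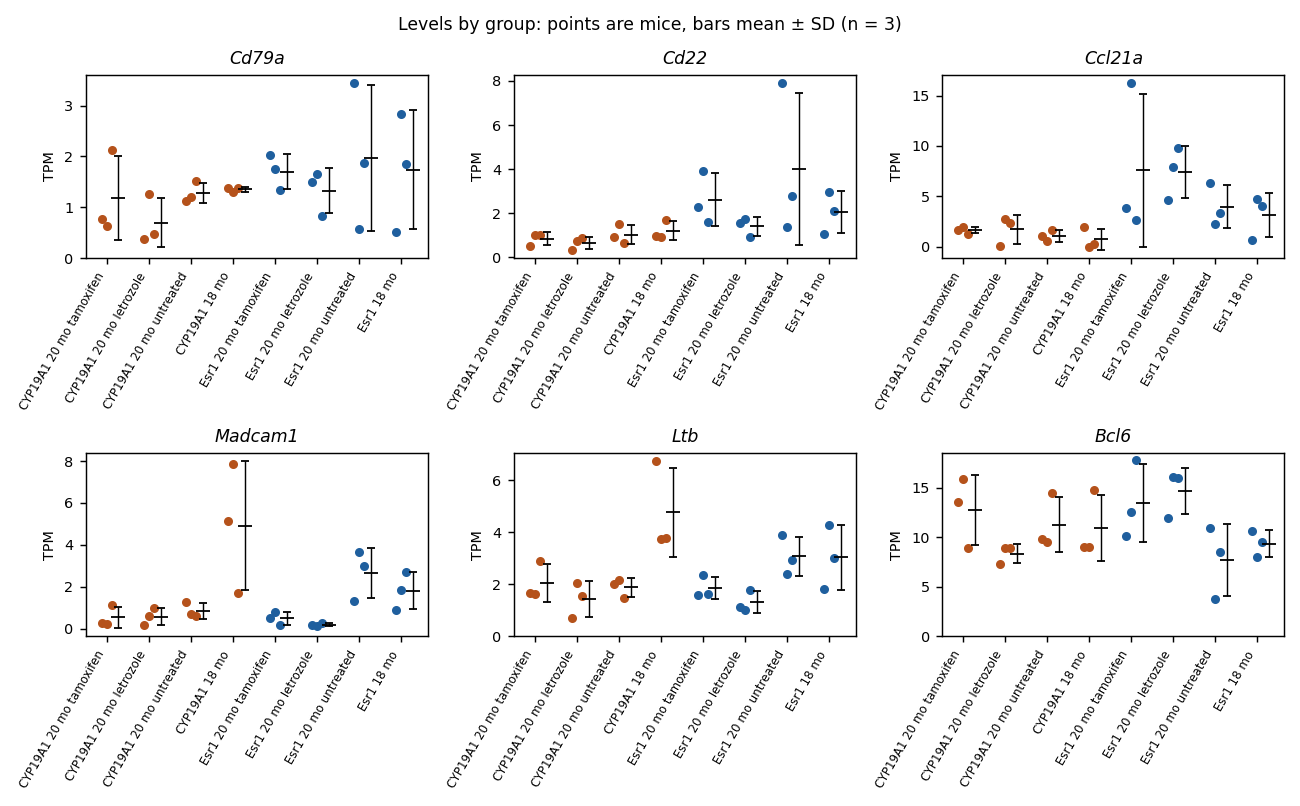
Levels in TPM (vertical axis, from 0) of Cd79a, Cd22, Ccl21a, Madcam1, Ltb and Bcl6 in the 8 groups (horizontal axis, CYP19A1 groups in orange left of Esr1 groups in blue). Each point is a mouse and the bar beside it the mean ± SD of 3. Cd79a overlaps in each comparison made, Cd22 and Ccl21a are lower on average in CYP19A1 glands, and Madcam1 is highest in CYP19A1 18-month glands at 7.87, 5.15 and 1.73 TPM.

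The first comparison asks how the 2 transgenes differ. Averaged over the 4 conditions, Cd22 and Ccl21a were lower in the CYP19A1 line. Cd22 averaged 0.939 ± 0.379 TPM in CYP19A1 glands and 2.52 ± 1.90 TPM in Esr1 glands (SD, n = 12 each), a log2 difference of -0.75 ± 0.18 (limma adjusted p = 0.0107). Ccl21a averaged 1.29 ± 0.905 TPM in CYP19A1 glands and 5.54 ± 4.20 TPM in Esr1 glands, a log2 difference of -1.39 ± 0.30 (limma adjusted p = 0.00569). These 2 of 26 tested members passed, against 7.27% of all 19325 genes, and 3.31% of all genes passed as lower. Over all 33 members the median difference was -0.108, with 24 of 33 lower, beside a median of 0.002 over all genes tested.

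Within each condition the 2 genes kept their sign but did not pass singly. For Cd22 the CYP19A1 minus Esr1 difference was -0.92 with tamoxifen, -0.54 with letrozole, -1.11 untreated at 20 months and -0.42 at 18 months. For Ccl21a it was -1.36 with tamoxifen, -1.77 with letrozole, -1.22 untreated and -1.22 at 18 months. Their adjusted p in limma ran from 0.072 to 0.936 over these 8 tests. Counts of members that passed were 0 at 18 months (background 1.36%), 0 at 20 months untreated (5.27%), 0 with tamoxifen (1.01%) and 0 with letrozole (0.906%). At an unadjusted limma p under 0.05 these counts were 3, 4, 3 and 5 of the 26, against 8.38%, 21.6%, 7.86% and 7.71% of all genes.

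Leaving out the library rich in ribosomal RNA, Esr1 20-month untreated replicate 2, brought the members lower in the average to 6, adding Fcrla, Blnk, Bank1 and Pax5 to Cd22 and Ccl21a, and 8.31% of all genes then passed. Without it Cd22 was also lower in CYP19A1 glands at 20 months untreated (-1.54 ± 0.34, limma adjusted p = 0.0178), where 3.12% of all genes passed. Without replicate 1 of that group, the gland highest in B cell genes, 3 members passed at 20 months untreated: Ebf1 at 1.12 and Irf4 at 1.21 higher, and Madcam1 at -1.24. The share of all genes that passed in this fit was not worked out, so the count has no background. Scaling by median ratios gave 1 member higher and 3 lower in the average (Irf4 at 0.48, Blnk at -0.41, Cd22 at -0.74 and Ccl21a at -1.39), against 0 higher and 2 lower on the TPM scale, and 11.8% of all genes passed under that scaling. At 18 months, leaving out CYP19A1 replicate 3 made Madcam1 pass as higher in CYP19A1 glands (1.44 ± 0.33, limma adjusted p = 0.0292).

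Other marker lists were read beside these line differences. Of 20 further B cell genes, 19 were tested and 0 passed in the average. Of 12 immunoglobulin constant and J chain genes, Ighg1 (2.20 ± 0.32) and Ighg2b (1.58 ± 0.28) were higher and Iglc1 (-3.09 ± 0.38) lower in the CYP19A1 line by limma (adjusted p = 0.000164, 0.00113 and 2.41e-05). Of 7 germinal centre genes 3 were tested, and Fas alone passed. Fas, a death receptor that germinal centre B cells and other cells carry, was lower, at -0.63 ± 0.08 (limma adjusted p = 1.35e-05). Among 8 epithelium genes the basal keratins Krt14 and Krt5 were lower, and among 8 adipocyte genes Cfd and Retn were higher. With the epithelium, adipocyte and muscle levels as covariates, Cd22 still passed (-0.68 ± 0.19, limma adjusted p = 0.0342), Ccl21a was at -1.09 ± 0.33 (adjusted p = 0.0578), and Bank1 (-0.45) and Madcam1 (0.42) passed. Of all genes 7.39% passed in the average with these covariates. The labels do not say whether the lines share a strain background, and its part was not tested.

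The next comparison asks how 20 months differ from 18. The mice had 8 months of induction at 20 months of age and 6 months of induction at 18. Age and induction time therefore cannot be told apart, and age stands for both below. In the CYP19A1 line Madcam1 and Ltb were lower at 20 months than at 18. Madcam1 stood at 1.28, 0.69 and 0.59 TPM at 20 months, against 5.15, 7.87 and 1.73 TPM at 18 months, with no overlap. Its log2 difference was -1.53 ± 0.36 (limma adjusted p = 0.0184). Ltb stood at 2.02, 2.18 and 1.47 TPM at 20 months, against 6.75, 3.75 and 3.79 TPM at 18 months, also with no overlap, a difference of -0.96 ± 0.26 (limma adjusted p = 0.0282). These 2 of 26 members compare with a background of 9.45% of all genes, 6.45% lower.

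In the CYP19A1 age comparison the centre of all genes was shifted on the TPM scale. The median difference was -0.225 over all genes and -0.190 over the 26 tested members, so the members as a group did not lie below the rest. Relative to that shift Madcam1 and Ltb were lower still. Scaled by median ratios, Madcam1 fell by 1.35 and Ltb by 0.76 on the log2 scale, and both passed. Of all genes called in this comparison, 31.8% were higher on the TPM scale and 77.7% after median-ratio scaling.

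Both age calls depended on single mice and on the fit. Madcam1 did not pass without CYP19A1 18-month replicate 1 (adjusted p = 0.0815) or 2 (0.0748), or without CYP19A1 20-month untreated replicate 2 (0.0539) or 3 (0.12), all by limma, and its difference then lay between -1.48 and -1.16. Ltb did not pass in limma without CYP19A1 18-month replicate 1 (-0.73, adjusted p = 0.163) or without CYP19A1 20-month untreated replicate 1 (0.0511), 2 (0.0569) or 3 (0.15). With only the compared groups fitted, neither passed (limma adjusted p = 0.0791 for Madcam1 and 0.0631 for Ltb), and with no filter on low values Ltb did not pass (0.0548). The T cell list moved with them. Of its 13 genes 11 were tested and 7 were lower at 20 months, with Cd3e at -1.19 ± 0.30 (limma adjusted p = 0.0227). The mean log2(TPM + 1) of the list ranged from 0.733 to 1.15 at 20 months and from 1.58 to 2.17 at 18 months. Tnfsf11 (RANKL), a tumour necrosis factor family ligand of lymphocytes and mammary epithelium, was lower, at -2.30 ± 0.56 (limma adjusted p = 0.0219). Vcam1, an adhesion molecule, was lower, at -1.04 ± 0.24. The epithelium list averaged 4.91 ± 0.89 at 20 months and 6.32 ± 0.64 at 18 months (SD, n = 3). With the 3 tissue covariates Madcam1 still passed (-1.65 ± 0.29, limma adjusted p = 0.0226) and Ltb was at an adjusted p of 0.425.

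In the Esr1 line 0 of 26 members passed with age by limma, against 0.00517% of all genes. At an unadjusted p under 0.05 the count was 0, against 6.28% of all genes. Madcam1 stood at 1.35, 3.65 and 2.99 TPM at 20 months and 0.91, 1.84 and 2.69 TPM at 18 months. Ltb stood at 3.89, 2.4 and 2.93 TPM at 20 months and 1.82, 4.29 and 3 TPM at 18 months. Both pairs of groups overlapped. The median over the 33 members was 0.131, beside -0.136 over all genes. The age effect of Madcam1 in CYP19A1 minus that in Esr1 was -1.91 ± 0.51 (limma adjusted p = 0.42), and that of Ltb was -1.01 ± 0.37 (limma adjusted p = 0.472), so neither line difference in the age effect passed. Without CYP19A1 18-month replicate 3 the difference of Madcam1 passed, at -2.39 ± 0.44 (limma adjusted p = 0.0232). Of the 26 members 0 passed this interaction, against 0.00517% of all genes. At an unadjusted p under 0.05 the count was 3, against 8.55% of all genes.

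The drug comparisons ask whether tamoxifen or letrozole acts differently in the 2 lines. Both drugs are set against the same untreated glands within a line, so their chance variation is shared, and the untreated Esr1 glands include the library rich in ribosomal RNA. With letrozole in the Esr1 line Madcam1 fell and Bcl6 rose. Madcam1 stood at 0.16, 0.15 and 0.28 TPM with letrozole, against 1.35, 3.65 and 2.99 TPM untreated. All 3 treated glands lay far below the untreated ones, a difference of -1.56 ± 0.36 (limma adjusted p = 0.0135). Bcl6 stood at 12, 16.1 and 16 TPM with letrozole, against 10.9, 3.77 and 8.58 TPM untreated, a difference of 0.93 ± 0.29 (limma adjusted p = 0.048). The treated glands were all higher, by little for the nearest pair.

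These 2 of 26 members stood beside 8.65% of all genes, of which 5.81% were lower and 2.85% higher. The median over the 33 members was -0.127, with 20 of 33 lower, and that over all genes was -0.006. Ltb (-0.82 ± 0.26, limma adjusted p = 0.0535) and Sdc1 (-0.62 ± 0.20, limma adjusted p = 0.0552) were just outside the threshold. Both passed as lower, beside Madcam1 and Bcl6, after median-ratio scaling (1 higher, 3 lower, against 1 higher and 1 lower on the TPM scale), where 21.5% of all genes passed. Of the genes called, 32.9% were higher on the TPM scale and 44.5% after median-ratio scaling. Without the ribosomal-rich Esr1 untreated replicate 2, 3.89% of all genes passed and 10.4% of those were higher, with 78 higher calls in place of 550. The single member that passed without it was Cd22, lower with letrozole (-1.29 ± 0.34, limma adjusted p = 0.043).

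The call for Bcl6 was lost in 17 of 24 fits that left out a single library, at adjusted p from 0.0524 to 0.20 in limma. The libraries were, in the CYP19A1 line, tamoxifen replicates 1 and 2, letrozole replicates 1, 2 and 3, 20-month untreated replicates 1 and 2, and 18-month replicates 1 and 2. In the Esr1 line they were tamoxifen replicate 2, letrozole replicates 1, 2 and 3, 20-month untreated replicates 2 and 3, and 18-month replicates 2 and 3. Without Esr1 untreated replicate 2, the ribosomal-rich library, its difference was 0.54 ± 0.26 (limma adjusted p = 0.20). Madcam1 did not pass without Esr1 untreated replicate 2 (-1.36 ± 0.40, limma adjusted p = 0.0613) or without Esr1 letrozole replicate 2 (-1.53 ± 0.41, adjusted p = 0.0649). Without Esr1 untreated replicate 1, Ebf1 (1.38 ± 0.27) and Irf4 (0.86 ± 0.29) also passed as higher (limma adjusted p = 0.00439 and 0.0448), and leaving out replicate 1 of either line at 18 months made Ltb and Sdc1 pass as lower.

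Markers of epithelium and T cells moved with letrozole in the Esr1 line as well. Of 8 epithelium genes 6 were lower, among them Krt8 (-1.77 ± 0.41), Epcam (-1.94 ± 0.46) and the alveolar factor Elf5 (-2.93 ± 0.59), with limma adjusted p from 0.00793 to 0.0162. The epithelium list lay between 3.38 and 4.39 with letrozole and between 6.34 and 6.87 untreated, on the mean log2(TPM + 1) scale. Of 13 T cell genes 11 were tested and 6 were lower, Cd3e at -1.02 ± 0.30 (limma adjusted p = 0.0384). Of the 19 further B cell genes tested 2 were lower, Cd24a and Tnfsf13 (APRIL), a ligand of the receptor Tnfrsf13b, at -1.86 ± 0.42. Of 12 immunoglobulin constant and J chain genes 2 were lower, Ighg1 (-2.32) and Igha (-2.22), and 0 higher. Ighm overlapped, at 543, 296 and 249 TPM with letrozole and 849, 139 and 295 TPM untreated. With the 3 tissue covariates 0 members passed: Madcam1 was at an adjusted p of 0.784 and Bcl6 at 0.949, and 0.0155% of all genes passed.

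In the CYP19A1 line 0 of 26 members passed with letrozole by limma (background 0.0207%), and 1, Sdc1, had an unadjusted p under 0.05 (3.79% of all genes). Madcam1 stood at 0.17, 0.61 and 0.98 TPM with letrozole and 1.28, 0.69 and 0.59 TPM untreated, and these overlapped. Bcl6 stood at 7.27, 8.95 and 8.89 TPM with letrozole and 9.86, 9.56 and 14.5 TPM untreated, so the treated glands were all lower. The effect of letrozole on Bcl6 in CYP19A1 minus that in Esr1 was -1.31 ± 0.41 (limma adjusted p = 0.31), and that on Madcam1 was 1.32 ± 0.51 (limma adjusted p = 0.356). This interaction was passed by 0 of 26 members and by 0% of all genes (limma). An unadjusted p under 0.05 was held by 3 members, against 11.8% of all genes. Over the 33 members 29 of 33 were lower with letrozole in the CYP19A1 line, with a median of -0.234 beside -0.099 over all genes. These letrozole glands include replicate 1, the library with the fewest genes at 1 TPM (14410).

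With tamoxifen 0 of 26 members passed in the Esr1 line by limma (background 1.55%) and 0 in the CYP19A1 line (0.16%). At an unadjusted p under 0.05 these counts were 2 and 0, against 18.4% and 4.38% of all genes. Those 2, in the Esr1 line, were Madcam1 (-1.25 ± 0.36, limma adjusted p = 0.0743) and Bcl6 (0.79 ± 0.29, limma adjusted p = 0.149), the same members that letrozole changed against the same untreated glands. Madcam1 stood at 0.51, 0.82 and 0.18 TPM with tamoxifen, against 1.35, 3.65 and 2.99 TPM untreated, with no overlap. It passed after median-ratio scaling (-1.33 ± 0.38, limma adjusted p = 0.0327), without CYP19A1 18-month replicate 3 (adjusted p = 0.0315), and without Esr1 untreated replicate 1 (-1.54 ± 0.38, adjusted p = 0.0298), where Bcl6 and Ebf1 passed as well. Without the ribosomal-rich Esr1 untreated replicate 2, 0.269% of all genes passed with tamoxifen in the Esr1 line, and 0 members. The interaction of tamoxifen with the line was passed by 0 of 26 members and 0% of all genes (limma). An unadjusted p under 0.05 was held by 0 members, against 10.5% of all genes.

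Tamoxifen was also set against letrozole. Of the 26 members 0 passed in the Esr1 line (background 0.129%) and 0 in the CYP19A1 line (0.248%) by limma. At an unadjusted p under 0.05 these counts were 1 and 3, against 7.63% and 10.1% of all genes. Sdc1 had the smallest p in both. It stood at 13.8, 12.7 and 14 TPM with tamoxifen and 5.75, 8.46 and 7.55 TPM with letrozole in the CYP19A1 line, with no overlap, a difference of 0.83 ± 0.20 (limma adjusted p = 0.104). In the Esr1 line its difference was 0.56 ± 0.20 (limma adjusted p = 0.459). The median over the 26 members in the CYP19A1 line was 0.238, beside a shift of 0.162 over all genes.

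Correlations over the 24 libraries showed which members varied with Cd79a. Each member's log2(TPM + 1) was compared with Cd79a and with Cd3e (T cells), Krt8 (luminal epithelium), Adipoq (adipocytes) and Acta1 (skeletal muscle), 164 relations in all. All values are shares of the same library totals, and p-values came from 100000 permutations with Benjamini-Hochberg adjustment over the 164. Of the 32 other members, 19 correlated with Cd79a at an adjusted p under 0.05, and their median Pearson r was 0.631. Cd79b had r = 0.922 and Spearman rho = 0.889 (permutation p = 1e-05 for each, the smallest these permutations can give; adjusted p = 0.000205 and 0.000164). It kept r = 0.894 without the 2 libraries farthest from the Cd79a median and r = 0.931 with group means removed, so the pattern lay within the groups.

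Genes of B cells followed closely, including several too low to be tested between groups. Ms4a1 had r = 0.864 and rho = 0.854 (permutation p = 1e-05 each, adjusted 0.000205 and 0.000164), and 0.861 without the 2 farthest libraries. Blk had r = 0.825 and rho = 0.812 (permutation p = 1e-05 and 2e-05, adjusted 0.000205 and 0.000273), and 0.771 without them. Fcrl1, Pou2af1, Cxcr5, Fcrla and Bank1 had r from 0.765 to 0.804, and 0.691 to 0.753 without the 2 farthest libraries. Both BAFF receptors and all 4 signalling members passed for Pearson r. Of the 19, 16 stayed above r = 0.5 without the 2 farthest libraries.

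Other members had low correlations with Cd79a over the 24 libraries. Cr2 had r = 0.005 and rho = 0.040 (permutation p = 0.98 and 0.85, adjusted 0.982 and 0.925), Bcl6 r = 0.101, Irf4 r = 0.138, Vpreb3 r = 0.153, Madcam1 r = 0.198, Cxcl13 r = 0.219 and Ebf1 r = 0.227. With group means removed r was 0.6 for Irf4, 0.472 for Cxcl13 and 0.479 for Ebf1, and within the Esr1 line it was 0.632 for Irf4. Among the homing genes Cxcr5 (r = 0.787) and Ccl19 (r = 0.588) passed for Pearson r, and Ccl21a had r = 0.433 (adjusted permutation p = 0.13). Of the plasma cell genes Mzb1 alone passed, at r = 0.550 and rho = 0.390 (permutation p = 0.00532 and 0.0616, adjusted 0.0257 and 0.18), and had r = 0.432 without the 2 farthest libraries. With group means removed Mzb1 had r = 0.727, and within the Esr1 line 0.820.

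**Figure D3:**
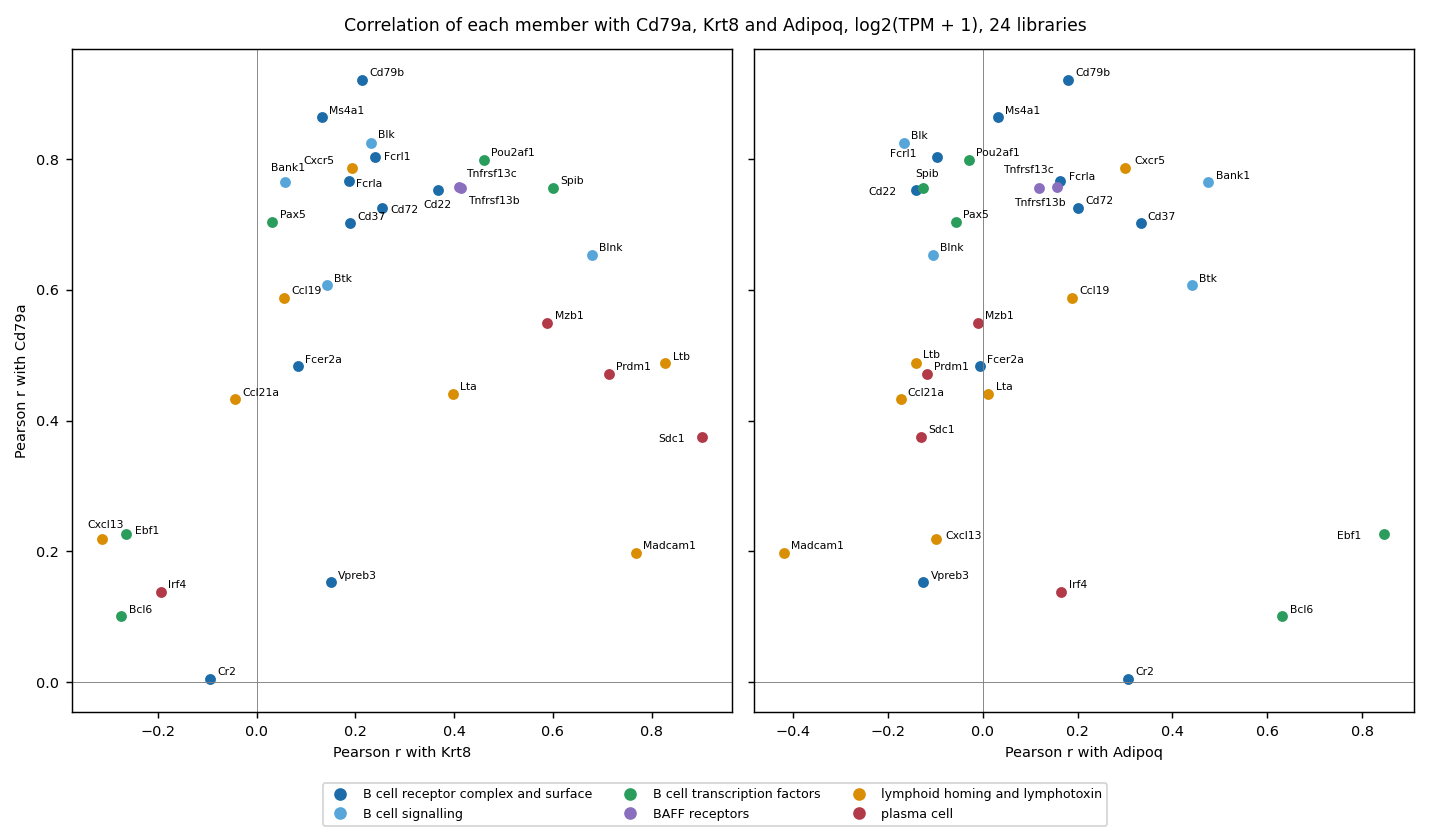
Pearson r of each of 32 members with Cd79a (vertical axis) against its r with Krt8 (left, horizontal axis) and with Adipoq (right, horizontal axis), over 24 libraries on the log2(TPM + 1) scale, coloured by role. Cd79b and Ms4a1 sit at the top, Sdc1, Ltb and Madcam1 at the right of the left panel, and Ebf1 and Bcl6 at the right of the right panel.

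Some members varied with markers of other tissues or of T cells, and some followed no marker closely over the 24 libraries. The largest r with any of the 5 markers was 0.351 for Cxcl13, 0.307 for Cr2, 0.166 for Irf4 and 0.153 for Vpreb3. Sdc1 had r = 0.902 and rho = 0.867 with Krt8 (permutation p = 1e-05 each, adjusted 0.000205 and 0.000164), and 0.847 without the 2 libraries farthest from the Krt8 median. Madcam1 had r = 0.768 and rho = 0.885 with Krt8 (permutation p = 2e-05 and 1e-05, adjusted 0.000219 and 0.000164) and 0.810 without those libraries. Its r with Cd3e was 0.790. Ltb had r = 0.862 and rho = 0.900 with Cd3e (permutation p = 1e-05 each, adjusted 0.000205 and 0.000164) and r = 0.828 with Krt8. Ltb kept r = 0.813 with Cd3e and 0.702 with Krt8 when group means were removed. Blnk had r = 0.770 with Cd3e, 0.679 with Krt8 and 0.654 with Cd79a.

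Ebf1 had r = 0.847 and rho = 0.754 with Adipoq (permutation p = 1e-05 and 7e-05, adjusted 0.000205 and 0.000765), 0.717 without the 2 farthest libraries, of which 1 was the ribosomal-rich gland. Bcl6 had r = 0.632 and rho = 0.480 with Adipoq (permutation p = 0.0018 and 0.019, adjusted 0.01 and 0.0779), and r = 0.335 without the 2 farthest libraries, so that relation rested on them. With Acta1, 0 of the 33 members passed for Pearson r, which ran from -0.398 to 0.408, but 4 passed for Spearman rho, all negative: Madcam1 (-0.833), Ltb (-0.814), Blnk (-0.587) and Sdc1 (-0.557). Madcam1 had r = -0.345 and rho = -0.833 (permutation p = 0.0874 and 1e-05, adjusted 0.235 and 0.000164). Ltb had r = -0.398 and rho = -0.814 (permutation p = 0.0561 and 1e-05, adjusted 0.174 and 0.000164). Without the 2 libraries farthest from the Acta1 median, CYP19A1 18-month replicate 3 and Esr1 18-month replicate 1, r was -0.869 for Madcam1 and -0.791 for Ltb. With group means removed and those 2 libraries kept in, r was 0.620 for Madcam1 and 0.375 for Ltb. The relation within groups without those 2 libraries was not computed, so these values do not settle its sign there. By largest r, 21 of the 33 members were most like Cd79a, 4 Krt8, 4 Adipoq, 3 Cd3e and 1 Acta1. Cd79a itself was compared only with the other markers and is counted under Krt8 (r = 0.396). No lowest r was required for this tally, and it includes largest values as low as 0.153 (Vpreb3 with Cd79a) and 0.166 (Irf4 with Adipoq).

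**Figure D4:**
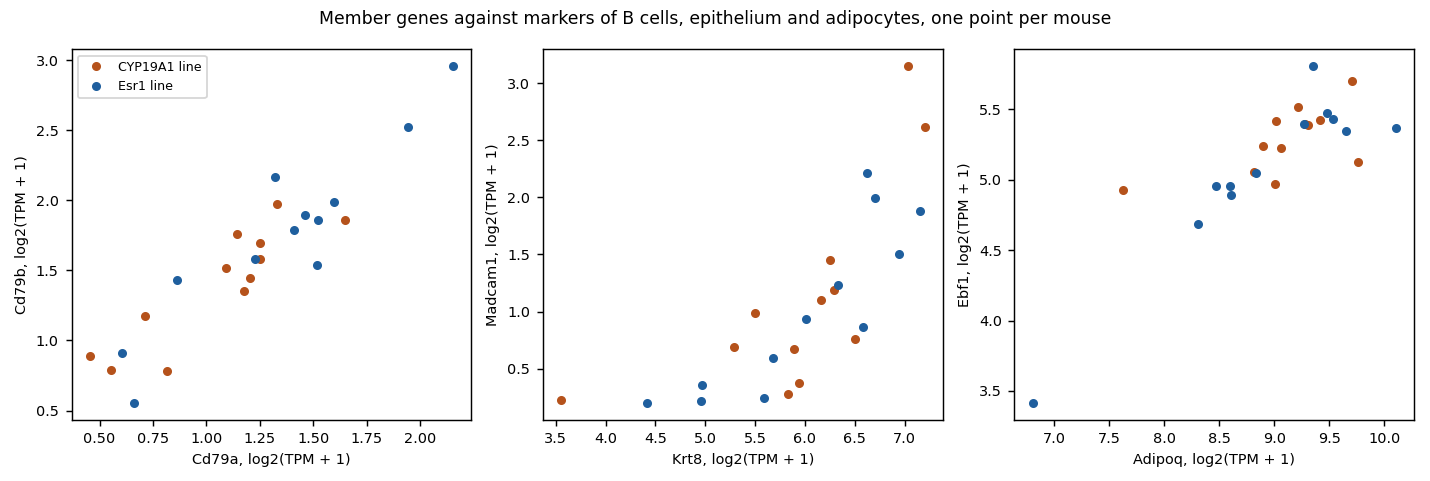
Cd79b against Cd79a, Madcam1 against Krt8 and Ebf1 against Adipoq, each axis log2(TPM + 1), with 1 point per mouse (CYP19A1 line orange, Esr1 line blue). All 3 pairs rise together, at r = 0.922, 0.768 and 0.847, and the lowest Ebf1 point is Esr1 20-month untreated replicate 2.

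Genes of high endothelial venules and germinal centres were measured beside the members, and their levels were mixed. Chst4, the sulfotransferase of high endothelial venules, was listed at 0 in 15 of 24 libraries and reached 0.05 TPM, and Fut7, their fucosyltransferase, reached 0.46 TPM. The selectins Selp and Sele, which other activated endothelium also carries, ranged from 1.12 to 6.93 TPM and from 0.12 to 1.73 TPM. Glycam1, made by those venules and by milk-producing epithelium, ranged from 0.21 to 3457.85 TPM, and was highest in Esr1 20-month untreated replicate 2, the gland that also led for the milk protein gene Csn2. Of the germinal centre list, Rgs13, a regulator of G protein signalling, reached 0.17 TPM, Gcsam 0.82 TPM and Mef2b 0.83 TPM. Fas, S1pr2 and Mybl1 of that list, which other cells also express, were higher, at 4.98 to 15.5 TPM, 2.18 to 9.63 TPM and 0.58 to 2.28 TPM. Ccr7, the receptor through which lymphocytes enter lymph nodes, reached 0.80 TPM. The symbols Fdcsp, Ccl21c and Ccl21d had no row.

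Antibody transcripts were far more abundant than B cell surface genes. Ighm ranged from 28.9 to 849 TPM, Igkc from 205 to 1359 TPM and Jchain, the joining chain of secreted antibody, from 16.7 to 101 TPM, with Cd79a at 0.37 to 3.45 TPM. Ighm and Igkc were both highest in Esr1 20-month untreated replicate 1, the gland that led 18 of the 33 members. In that gland Ccl21a was at 6.32 TPM, Cxcl13 at 7.6 TPM and Ccl19 at 4.86 TPM, the highest Ccl19 level of all libraries. Fut7 was at 0.29 TPM and Glycam1 at 603 TPM there. Chst4, listed at 0 in 15 of 24 libraries, was also at 0 there. Whether any gland held lymph node tissue was not tested.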

How the data were processed

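RNA sequencing of 24 mammary glands was deposited by the authors as 1 table of TPM values, 1 column per mouse, with 2 decimals. FastQC 0.11.9, Trim Galore 0.6.5, STAR 2.7.9a and RSEM 1.3.1 and the build mm10 are named, per the submitters' processing notes; their settings and the gene annotation are not given there. Because TPM are shares, an abundant RNA in one library lowers its other values. Columns were matched to mice by their names in the labels. A gene was kept where 3 or more libraries reached 1 TPM (19325 of 55487 genes), and log2(TPM + 1) was fitted with limma 3.58.1 (R 4.3.3) over all 8 groups together, with 16 contrasts and Benjamini-Hochberg adjustment over all genes kept. The fit was tested on simulated data. Correlations used 100000 permutations (scipy 1.17.1, Python 3.11.15). The alternatives tried were a pseudocount of 0.1, no filter, fitting the compared groups alone, median-ratio scaling, rescaling without ribosomal, signal recognition particle and mitochondrial RNA, a replicate block, leaving out each library, and, added after seeing the data, tissue covariates. No 2 columns were identical (highest Spearman correlation 0.9268). Values per library are printed for 11 members named in the plan and for each member that passed. The 33 members, the other gene lists and the tests were chosen with earlier results of these data known.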

Additional observations from a re-analysis of the deposited data

Results flagged for a closer look

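Bcl6 levels with letrozole lay on opposite sides of the untreated levels in the 2 lines. Every CYP19A1 letrozole gland lay below every CYP19A1 untreated gland, and every Esr1 letrozole gland lay above every Esr1 untreated gland. The effect in CYP19A1 minus that in Esr1 was -1.3064 on the log2(TPM + 1) scale (SE 0.41), and this difference did not pass in limma (adjusted p = 0.31). The lowest Bcl6 level, 3.77 TPM, was in Esr1 20-month untreated replicate 2, where 31.3% of the TPM was ribosomal RNA. That gland also had the lowest adipocyte list mean of all libraries, 5.89 on the log2(TPM + 1) scale. After rescaling without ribosomal, signal recognition particle and mitochondrial RNA, the Bcl6 difference with letrozole in Esr1 was 0.99 ± 0.28 (limma adjusted p = 0.0236). With that gland left out it was 0.54 (limma adjusted p = 0.20). The cause was not tested.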

How the results depend on the processing

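Over 31 alternatives for each of the 6 member calls, 150 of the recomputed values stayed past the threshold and 36 did not, and 0 reversed. Cd22 between lines passed in all 31. Median-ratio scaling and rescaling without ribosomal, signal recognition particle and mitochondrial RNA gave 4 and 4 members in the line average, 3 and 2 between lines at 20 months, 1 and 1 with tamoxifen in Esr1, and 4 and 4 with letrozole in Esr1. The shares of all genes that passed rose too: 11.8% and 10.2% in the line average, 15% and 10.6% between lines at 20 months, 9.9% and 6.77% with tamoxifen in Esr1, and 21.5% and 15.3% with letrozole in Esr1. With no filter on low values, 1 member passed with age in CYP19A1 and 1 with letrozole in Esr1; with only the compared groups fitted, these counts were 0 and 1. With tissue covariates the counts were 1 between lines at 18 months, 1 with age in CYP19A1 and 0 with letrozole in Esr1. The shares of all genes were then 3.26%, 0.652% and 0.0155%. Leaving out each library in turn gave 0 to 1 member between lines at 18 months, 0 to 3 at 20 months, 2 to 6 in the average, 0 to 3 with age in CYP19A1, 0 to 3 with tamoxifen in Esr1, 0 to 4 with letrozole in Esr1, 0 to 1 for the age interaction, and 0 throughout for the other 9 comparisons. The causes were not tested. Among fits that left out a library, the share of all genes was worked out only without Esr1 20-month untreated replicate 2. With the replicate number as a block, the counts of calls stayed at 2, 2 and 2 in the 3 comparisons with calls and at 0 in the others. Same-numbered mice of different groups did not deviate together: the median correlation of 84 such pairs was -0.003, 19 were over 0.1, and 8 of 24 libraries correlated best with their own number. Depth is unknown, and members under 1 TPM rest on values with 2 decimals.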
